A study of Homo sapiens with 20 samples.

Results

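The genes described here are 10 components and feedback targets of the NF-kB pathway. They were taken by name from the 57500 genes listed for each library, with Ensembl identifiers mapped to symbols. The 5 subunit genes are NFKB1, NFKB2, REL, RELA and RELB. NFKBIA and TNFAIP3 encode inhibitors, NFKBIZ encodes a nuclear IkappaB protein known as a cofactor, and BIRC3 and ICAM1 are target genes. All 10 were found once and passed the filter on low counts in every comparison. NTERT cells are human keratinocytes immortalized with hTERT, and GCN2KO cells are pooled early-passage NTERT cells edited with CRISPR-Cas9 at the gene of the eIF2 kinase GCN2. WT and GCN2KO cells were each left unwounded or subjected to HDW, in 4 groups of 5 libraries, where HDW is high-density wounding, a grid of scratches that puts many cells at a wound edge. RNA was isolated 6 h after wounding, to ask how gene expression changes upon wounding with and without GCN2. Monolayers were differentiated in calcium and serum before HDW. A figure legend of the study describes WT NTERT as cells with a control guide RNA. Whether all GCN2KO libraries came from 1 pool, and which of the 2 guides was used for them, is not given in the sources used here. Loss of GCN2 and other differences between GCN2KO and WT cells thus cannot be told apart.

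NF-kB factors are dimers built from Rel-family subunits. RELA, REL and RELB carry activation domains, whereas NFKB1 and NFKB2 encode precursors that are trimmed to DNA-binding partners and, untrimmed, hold dimers back in the cytoplasm. Signals from TNF, IL-1 and Toll-like receptors activate the IKK kinases, which mark the inhibitor encoded by NFKBIA for destruction and free the dimers, and the dimers then transcribe NFKBIA, TNFAIP3 and other brakes on the same route. In epidermis the pathway drives cytokines and adhesion molecules upon injury and shapes keratinocyte survival and growth.

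The libraries held 14083504 to 34611570 counts on genes, with group medians of 23685751 in WT unwounded and 33981257 to 34209033 in the other groups. Raw counts of the 10 genes ran from 185 to 6158 per library. In 37 of 40 sets of 1 gene and 1 group the SD between replicates was above the counting error at the lowest raw count, the exceptions being NFKBIA and NFKBIZ in WT unwounded and NFKB2 in WT HDW cells, and in 27 it was above by over 1.5 times. EIF2AK4, the gene of GCN2, had 3980 to 4555 normalized counts in the 10 WT libraries and 806 to 962 in the 10 GCN2KO libraries, so each library matched its genotype label. Normalized counts are counts divided by TMM-scaled library size relative to its mean over the 20 libraries. Of 14 keratinocyte markers 13 were above 1 CPM in every group, KRT1 being the exception. Among unwounded cells these markers differed by genotype in both directions. IVL stood at 109 CPM in WT and 385 in GCN2KO cells, KRT5 at 8132 and 11451 and LAMB3 at 2464 and 5243. KRT14 stood at 2202 and 1222, ITGA6 at 1440 and 865 and ITGB4 at 1748 and 904. The part of these shifts in the results was not tested. PTPRC, the defining leukocyte marker, had at most 2 counts in a library, and TYR and SOX10 of melanocytes had none. The whole list of 7 melanocyte genes summed to 4.54 to 5.96 CPM in WT unwounded and 6.12 to 7.28 in WT HDW libraries, and to 12.2 to 17.97 and 13.6 to 22.4 in GCN2KO libraries, most of it from MITF. The part of this in the genotype differences was not tested. The summed leukocyte list ran from 56.6 to 65.4 CPM (counts per 1000000 TMM-scaled counts) in WT unwounded and 31.5 to 36.9 in WT HDW libraries. In GCN2KO cells it ran from 25.1 to 45.0 before and from 17.3 to 37.1 after wounding. Its sum came almost wholly from CD14, at 58.5 CPM in WT unwounded cells, and the part of this in the results was not tested. The fibroblast list summed to 87.1 to 120 CPM in WT and 47.6 to 59.7 in GCN2KO libraries, mostly FBLN1 and COL1A1, with POSTN at 0 counts throughout. Some libraries stood apart. GCN2KO unwounded 1 and GCN2KO HDW 5 lay at 37.5 and 36.1 on the first principal component of all tested genes, against 50.6 to 56.7 for the other GCN2KO libraries. GCN2KO unwounded 3 and 5 lay at -28.4 and -25.1 on the third component. GCN2KO unwounded 2 and 4 lay at 8.07 and 3.95 on the second, against 17.97 to 19.2 in the rest of that group. The chi-square per degree of freedom was 8.44 between 3 and 5, 6.76 between 2 and 4, and 41.2 to 49.4 across these pairs, so the group was not 1 cluster. Values that changed their call or moved by over 1.5 times without GCN2KO unwounded 1, 3 or 5 or GCN2KO HDW 5 are given beside each gene. Those of RELA with 1 library left out are given further below as ranges. Bulk RNA cannot tell fewer cells of a kind from less RNA per cell. The study's methods describe 5 replicates plated for each group, without saying whether these were separate passages, so the p-values measure the spread between these samples.

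The promoters of these genes are shown first, because several of the members are themselves textbook NF-kB targets. The RefSeq promoter table (GRCh38.p14) holds windows of 300 bases, 250 before and 50 from each annotated start, for 9 of the 10 genes, RELB being not in the table. The kappaB consensus, the binding motif of NF-kB dimers, was searched on both strands and matched in 7 of the 9 genes, against 13.3% of the 27305 genes in the table. The strands of each gene are printed 5′ to 3′ with the matched bases in capitals, REL with matches on both strands that overlap and TNFAIP3 with a pair of separate matches.
NFKB1, chr4:102501300-102501329, + strand: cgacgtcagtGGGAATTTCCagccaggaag
NFKB2, chr10:102395674-102395703, + strand: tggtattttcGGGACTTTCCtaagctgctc
REL, chr2:60881517-60881546, + strand: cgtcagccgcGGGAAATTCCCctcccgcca
NFKBIA, chr14:35404796-35404855, - strand: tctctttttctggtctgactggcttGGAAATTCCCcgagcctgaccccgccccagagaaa
NFKBIZ, chr3:101827742-101827801, + strand: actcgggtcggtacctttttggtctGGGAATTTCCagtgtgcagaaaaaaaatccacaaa
TNFAIP3, chr6:137867188-137867217, + strand: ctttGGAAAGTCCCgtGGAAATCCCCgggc
BIRC3, chr11:102317324-102317383, + strand: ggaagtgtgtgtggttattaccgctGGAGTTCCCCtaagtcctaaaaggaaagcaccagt

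The first matched base of the printed stretches was counted from the annotated start that each window is built on. It lay at -49 in NFKB1, -21 in NFKB2, -47 in REL, -81 in NFKBIA and -223 in NFKBIZ. In TNFAIP3 it lay at -67 and -55 and in BIRC3 at -135. The printed stretches of NFKB2, REL and TNFAIP3 overlap annotated untranslated exon bases. That of NFKB2 lies in the window 102395455 to 102395754, inside a gene that starts at 102394110. BIRC3 had a further match at -199, NFKBIZ had matches in both of its windows, and NFKB2 in 2 of its 3. The windows of RELA and ICAM1 held none, which says only that these letters are not in those 300 bases. A looser motif, GGGNNNNNCC, matched in all 9 genes but also in 61.7% of all genes in the table. Among target genes of NF-kB other than the members, 26 of 46 with a window held the consensus, as did 8 of 17 other inhibitors, 4 of 26 receptors and ligands and 5 of 31 genes of signalling to IKK. A match is a description of the sequence and was not tested for binding.

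**Figure D1:**
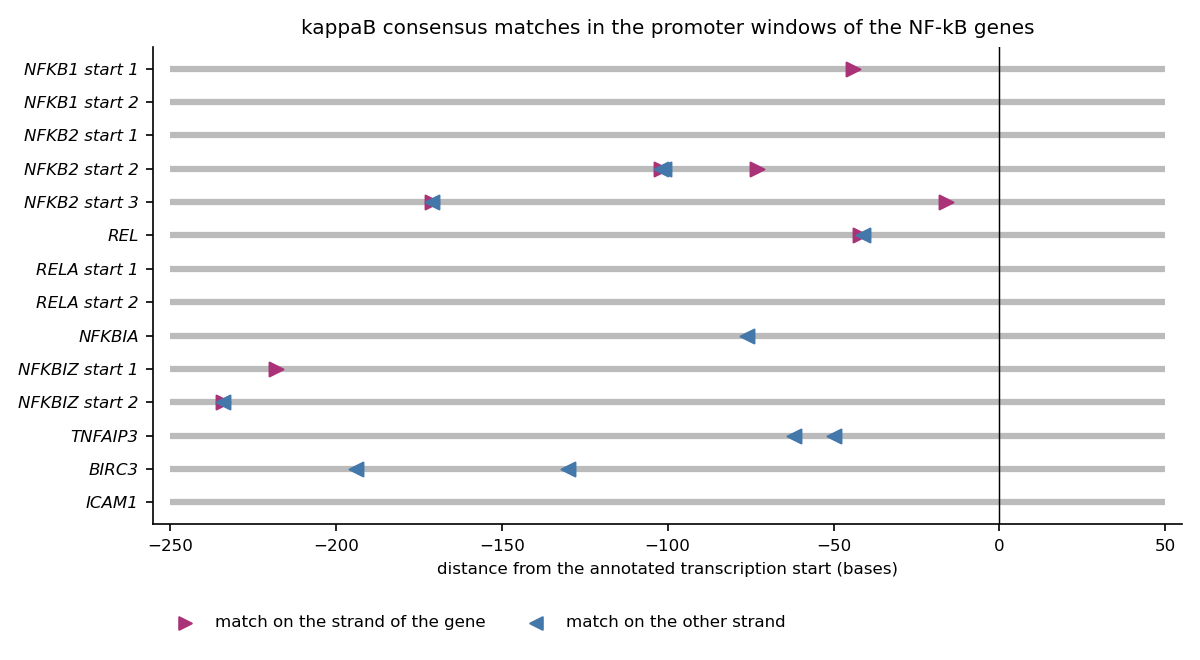
Map of kappaB consensus matches in the 14 promoter windows of 9 genes (grey bars), with the distance from the annotated start in bases on the x axis and the centre of each match as a triangle pointing along its strand. Matches fall in 9 of the 14 windows, all upstream of the start, and none in the windows of RELA and ICAM1.

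In unwounded cells, most of the 10 genes had lower mRNA levels in GCN2KO than in WT cells. NFKB1, REL, NFKBIA, NFKBIZ and TNFAIP3 were DE genes, each at or below 0.496 of the WT level. DE stands for differentially expressed, which asks for an adjusted p no higher than 0.05 in edgeR's quasi-likelihood test and a log2 fold change of 1 or more either way. These 5 of 10 stand against 8.22% of the 15348 tested genes that were lower by this rule. At adjusted p alone 8 of 10 fell and none rose, the 5 above with RELB, BIRC3 and ICAM1, against 33.1% of all tested genes that fell and 33.4% that rose. In the same 8 every GCN2KO library lay below every WT library, as it did for 27.0% of tested genes. The median log2 fold change was -0.84 over the 10 genes and 0.004 over all tested genes. NFKB2 and RELA did not pass the test.

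After HDW the median genotype difference was smaller, and none of the 10 was a DE gene, against 14.9% of the 15855 tested genes in either direction. NFKB1, REL, NFKBIA, NFKBIZ and TNFAIP3 still fell at adjusted p alone, 5 of 10 against 35.8% of tested genes. In the same 5 the groups did not overlap, as for 29.3% of tested genes. NFKB2 rose in GCN2KO cells, 1 of 10 against 35.9% of tested genes that rose. The median over the 10 genes was -0.38, and 0.002 over all tested genes.

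Wounding itself lowered 7 of the 10 genes modestly in WT cells and raised none at adjusted p alone. NFKB1, NFKB2, REL, RELB, NFKBIA, BIRC3 and ICAM1 fell, against 25.2% of 15348 tested genes that fell and 26.1% that rose. None was a DE gene, as 4.17% of tested genes were, and in 6 of the 10 every WT HDW library lay below every WT unwounded library, against 17.7% of tested genes. The median was -0.30 over the 10 genes and -0.002 over all tested genes.

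In GCN2KO cells wounding lowered none of the 10 genes at adjusted p alone and raised TNFAIP3 and ICAM1. The 2 of 10 that rose stand against 11.9% of 15791 tested genes that rose and 10.8% that fell, and none of the 10 was a DE gene, as 0.671% of tested genes were. The call for ICAM1 rested on a narrow margin (edgeR adjusted p = 0.0469) and was lost in 7 of 10 fits that each left out 1 library and under 5 other settings. Without GCN2KO unwounded 1, 4 of the 10 rose, NFKB1, NFKBIZ, TNFAIP3 and ICAM1, against 9.40% of 15992 tested genes that rose in that fit. The counts over all tested genes also rested on single libraries. The 1880 that rose became 1183 without GCN2KO HDW 3, 1187 without GCN2KO HDW 2 and 1245 without GCN2KO unwounded 5, and the 1706 that fell became 887, 950 and 972, and 1074 without GCN2KO HDW 1.

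The difference between the 2 wounding responses was tested as the interaction of genotype and HDW over all 20 libraries, with 16536 genes tested. Each group enters 2 of the pairwise comparisons, so these share libraries and are not independent of each other. It was positive past the adjusted p for 8 of the 10 genes, that is, for each the change upon HDW was more positive in GCN2KO than in WT cells. Over all tested genes 11.2% had a positive and 12.5% a negative interaction at adjusted p alone, and 3.31% were DE genes, which none of the 10 was. With library size alone as scaling, 2477 tested genes were positive and 1510 negative, against 1851 and 2075 with TMM. The median interaction was 0.44 over the 10 genes and -0.009 over all tested genes. Without GCN2KO unwounded 3 and 5, 6 of 10 passed, REL (adjusted p = 0.117, edgeR) and NFKBIZ (0.109) no longer doing so, against 9.12% positive and 11.6% negative of 16705 tested genes in that fit. Without WT HDW 3 NFKBIZ did not pass either (0.0515).

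**Figure D2:**
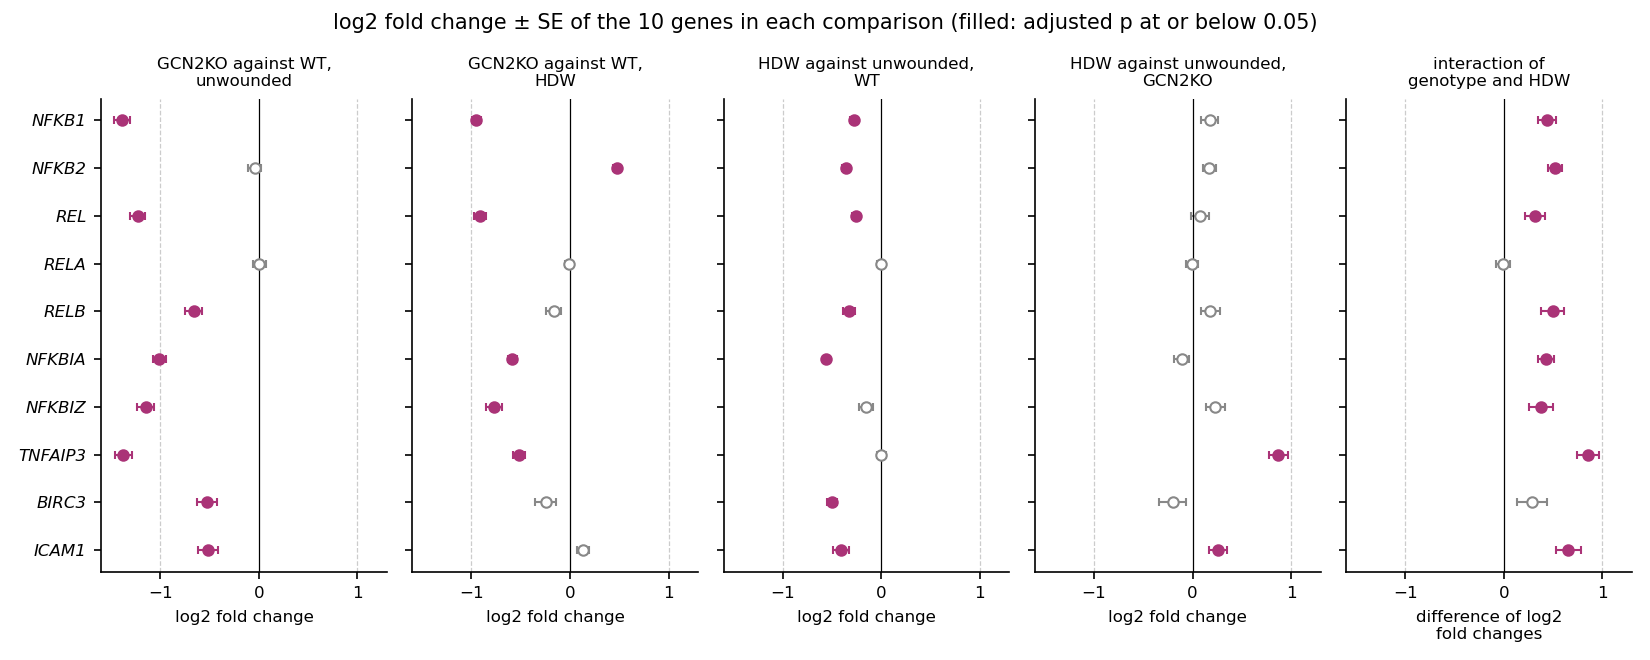
The log2 fold change of each gene (x axis, points) with its standard error (bars) in the 4 pairwise comparisons, and the difference of the log2 fold changes for the interaction, with filled points where the edgeR adjusted p is at most 0.05. Dashed lines stand at -1 and 1: only the unwounded genotype comparison has points below -1, 5 of them, and 8 of the 10 interaction points are filled and positive.

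NFKB1 encodes the precursor of the most common partner of RELA. The NFKB1 gene lies on chromosome 4, 102501330 to 102617302 of GRCh38 on the + strand. NFKB1 had 2888, 2871, 3087, 2869 and 2885 normalized counts in WT unwounded libraries and 2503, 2245, 2421, 2429 and 2449 in WT HDW libraries. In GCN2KO cells NFKB1 had 1321, 1142, 995, 1129.7 and 988 unwounded and 1174, 1262, 1201, 1256 and 1337 after HDW. Every GCN2KO library was below every WT library, and the WT HDW libraries lay wholly between WT unwounded and GCN2KO cells. GCN2KO against WT cells, as a log2 fold change, gave -1.39 (edgeR adjusted p = 4.03e-10, SE 0.079) in unwounded cells and -0.95 (edgeR adjusted p = 6.85e-10, SE 0.044) after HDW. Upon HDW it was -0.28 (edgeR adjusted p = 9.60e-06, SE 0.036) in WT cells. In GCN2KO cells the change was 0.17 (edgeR adjusted p = 0.142, SE 0.083), and the interaction was 0.44 (edgeR adjusted p = 0.00091, SE 0.090). Without GCN2KO unwounded 1 the change of NFKB1 upon HDW in GCN2KO cells was 0.24 and passed (edgeR adjusted p = 0.0429), whereas without GCN2KO unwounded 3 and 5 it was 0.06 (edgeR adjusted p = 0.587).

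REL encodes the subunit c-Rel, best known from lymphocytes. It followed NFKB1 closely. The REL gene lies on chromosome 2, 60881491 to 60931612 on the + strand, and 33.3% of its exonic bases are shared with an unnamed gene on the same strand that is listed at 0 counts in all 20 libraries. Reads on those bases may have been given to neither gene, which was not tested. Of the others except ICAM1, none shares more than 3.29%. REL had 2635, 2766, 2779.9, 2868 and 2827 normalized counts in WT unwounded libraries and 2437, 2196, 2242, 2453 and 2314 in WT HDW libraries. In GCN2KO cells REL had 1294, 1358, 999, 1155 and 1113 unwounded and 1077, 1215, 1232, 1254 and 1401 after HDW. The genotypes did not overlap, and the 2 GCN2KO groups did. GCN2KO against WT gave -1.23 (edgeR adjusted p = 1.45e-09, SE 0.079) in unwounded and -0.92 (edgeR adjusted p = 1.32e-08, SE 0.061) in wounded cells. HDW gave -0.26 (edgeR adjusted p = 3.51e-05, SE 0.037) in WT and 0.07 (edgeR adjusted p = 0.584, SE 0.092) in GCN2KO cells. The interaction was 0.32 (edgeR adjusted p = 0.0228, SE 0.1003). The change in GCN2KO cells was 0.01 without GCN2KO unwounded 3, 0.02 without GCN2KO HDW 5 and -0.03 without GCN2KO unwounded 3 and 5, and without the last pair the interaction was 0.20 and did not pass (edgeR adjusted p = 0.117).

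RELB encodes the usual partner of the trimmed NFKB2 product in the noncanonical pathway. The RELB gene lies on chromosome 19, 45001461 to 45038192 on the + strand, and had the lowest counts of the 10. RELB had 550.5, 528, 465, 477 and 497 normalized counts in WT unwounded libraries and 387, 434, 399, 381 and 397 in WT HDW libraries. In GCN2KO cells RELB had 332, 287, 313, 363 and 285 unwounded and 381, 408, 344, 309 and 328 after HDW. GCN2KO lay wholly below WT in unwounded cells, but the genotypes overlapped after HDW. The genotype difference was -0.66 (edgeR adjusted p = 4.95e-06, SE 0.086) in unwounded cells and -0.17 (edgeR adjusted p = 0.0599, SE 0.074) after HDW. In WT cells HDW gave -0.33 (edgeR adjusted p = 0.000296, SE 0.059) for RELB, and in GCN2KO cells 0.18 (edgeR adjusted p = 0.19, SE 0.096). The interaction was 0.50 (edgeR adjusted p = 0.00245, SE 0.113). The genotype difference after HDW passed without GCN2KO HDW 1 (-0.19, edgeR adjusted p = 0.0434), without GCN2KO HDW 2 (-0.22, edgeR adjusted p = 0.0161) and with no filter on low counts (-0.19, edgeR adjusted p = 0.0481). Without GCN2KO unwounded 3 and 5 the change of RELB in GCN2KO cells was 0.12.

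NFKB2 encodes the precursor that is trimmed in the noncanonical pathway. The NFKB2 gene lies on chromosome 10, 102394110 to 102402524 on the + strand. NFKB2 had 2295, 2264, 2192, 2138 and 2173 normalized counts in WT unwounded libraries and 1757, 1656, 1719.8, 1727 and 1754 in WT HDW libraries. In GCN2KO cells NFKB2 had 2238, 2219.6, 1922, 2321 and 2005 unwounded and 2468, 2335, 2408, 2473 and 2274 after HDW. WT HDW was thus the lowest group, below all other libraries, and the unwounded genotypes overlapped. In unwounded cells the genotype difference was -0.04 (edgeR adjusted p = 0.58, SE 0.066), with a 95% interval of -0.17 to 0.09. After HDW it was 0.47 (edgeR adjusted p = 6.88e-08, SE 0.037), in the direction opposite to NFKB1 and REL. HDW gave -0.36 (edgeR adjusted p = 2.99e-07, SE 0.033) in WT cells and 0.17 (edgeR adjusted p = 0.0808, SE 0.067) in GCN2KO cells, and the interaction was 0.52 (edgeR adjusted p = 1.37e-05, SE 0.072). The sign of the small unwounded difference depended on GCN2KO unwounded 3 and 5, the lowest libraries of their group, without which it was 0.04. It was -0.003 without GCN2KO unwounded 3 alone and -0.02 without GCN2KO unwounded 5 alone. Without that pair the change upon HDW in GCN2KO cells was 0.09 (edgeR adjusted p = 0.306), whereas it passed without GCN2KO unwounded 4 (0.20, edgeR adjusted p = 0.0463) and with all 20 libraries in one fit (0.16, edgeR adjusted p = 0.0181).

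RELA encodes the main transactivating subunit of the canonical pathway. The RELA gene lies on chromosome 11, 65653599 to 65663090 on the - strand. RELA had 3023, 2723, 2761, 2801 and 2765 normalized counts in WT unwounded libraries and 2821, 2868, 2714, 2789.7 and 2845 in WT HDW libraries. In GCN2KO cells RELA had 2871, 3010.5, 2740.0, 2966 and 2513 unwounded and 2902, 2853, 2842, 2635 and 2706 after HDW. All 4 groups overlapped. None of the 5 tests on RELA passed, with edgeR adjusted p from 0.837 to 0.959. The genotype difference had a 95% interval of -0.12 to 0.14 in unwounded cells and -0.08 to 0.06 after HDW, and the change upon HDW one of -0.07 to 0.06 in WT cells and -0.13 to 0.12 in GCN2KO cells. The sign of these small differences changed with the scaling, the filter or the libraries left out. Without GCN2KO unwounded 3 and 5 the genotype difference in unwounded cells was 0.08, the change upon HDW in GCN2KO cells -0.07 and the interaction -0.09, none past the adjusted p.

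**Figure D3:**
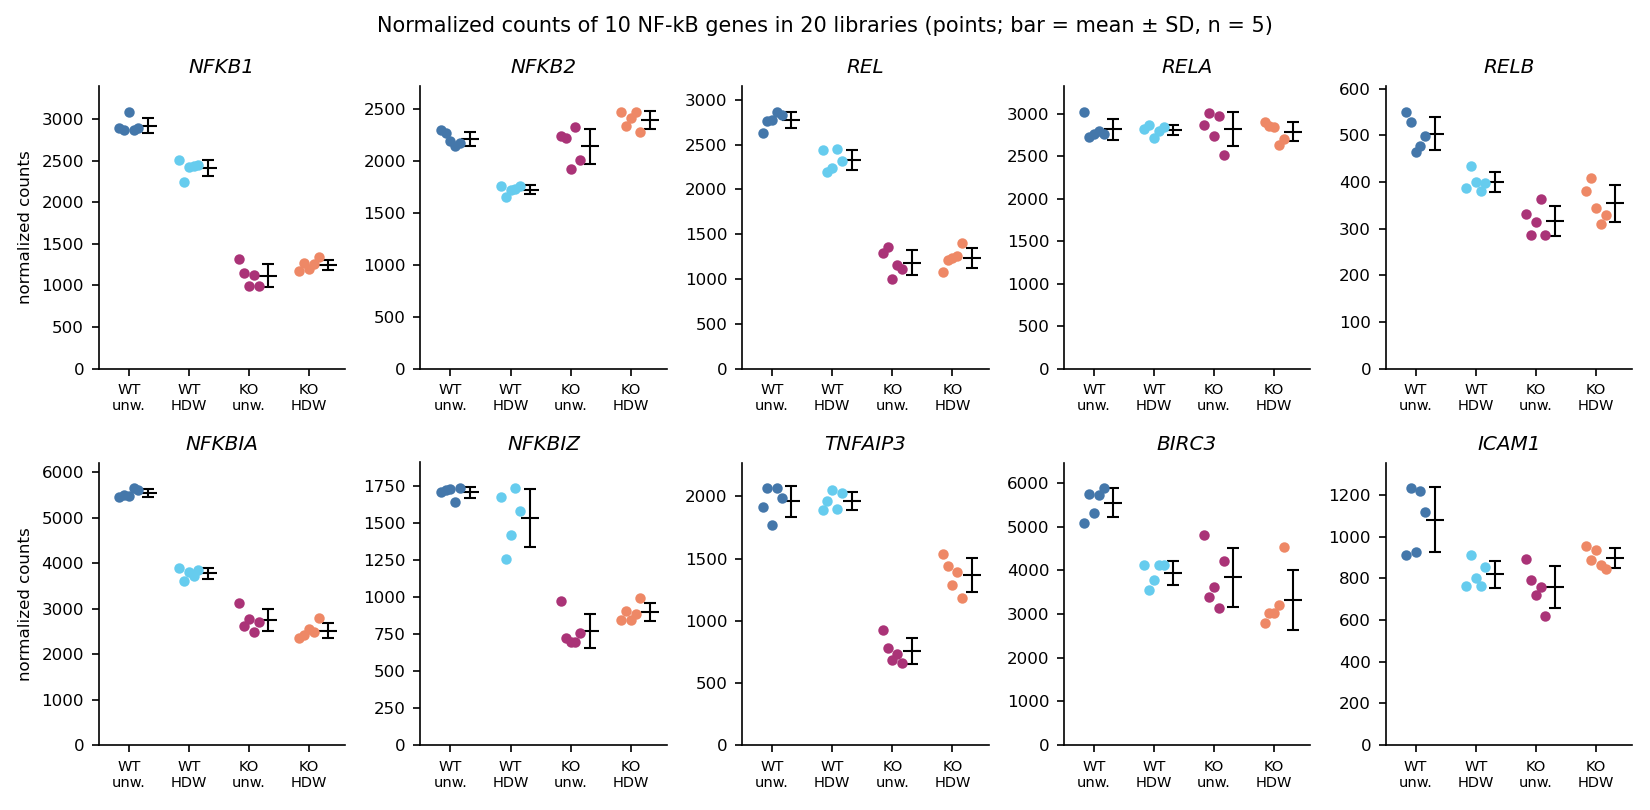
Normalized counts (y axis, from 0) of each of the 10 genes in the 20 libraries, in 4 groups of 5 (points, in replicate order), with the mean and SD of each group as a black bar. NFKB1 and REL separate the genotypes in both conditions, RELA is level over all 4 groups, NFKB2 is lowest in WT HDW, and TNFAIP3 rises from a mean of 756 to one of 1369 upon HDW in GCN2KO cells.

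The makeup of the subunit mRNAs is given as shares, as a description with no test. As CPM per kilobase of exon, the 5 subunits summed to 49.7 ± 1.16 (SD, n = 5) in WT unwounded cells and 39.9 ± 2.85 in GCN2KO unwounded cells. A share can thus be higher without a higher level, and RELA and NFKB2 did not pass the unwounded genotype test. RELA made up 36.1% ± 0.841 of this sum in WT unwounded cells and 45.1% ± 1.27 in GCN2KO unwounded cells. NFKB2 made up 27.7% ± 0.446 and 33.5% ± 0.905, respectively. NFKB1 took 13.0% ± 0.562 in WT unwounded and 6.20% ± 0.476 in GCN2KO unwounded cells. REL took 11.4% ± 0.604 and 6.03% ± 0.518, and RELB 11.8% ± 0.617 and 9.21% ± 0.758. After HDW RELA held 41.3% ± 0.700 in WT and 42.2% ± 0.858 in GCN2KO cells, closer than before wounding, while NFKB2 held 24.8% ± 0.475 and 35.4% ± 1.32. NFKB1 remained at 12.3% ± 0.443 in WT HDW and 6.58% ± 0.452 in GCN2KO HDW cells. With the length of the MANE Select transcript, a reference transcript for each gene, the share of NFKB1 was 23.7% in WT unwounded and 11.7% in GCN2KO unwounded cells, so the shares depend on the length used, while the lower NFKB1 share in GCN2KO cells does not. Without any length, the ratio of NFKB2 to NFKB1 counts was 0.758 ± 0.035 in unwounded and 0.715 ± 0.013 in wounded WT cells, and 1.93 ± 0.142 in unwounded and 1.93 ± 0.154 in wounded GCN2KO cells (SD, n = 5 each).

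**Figure D4:**
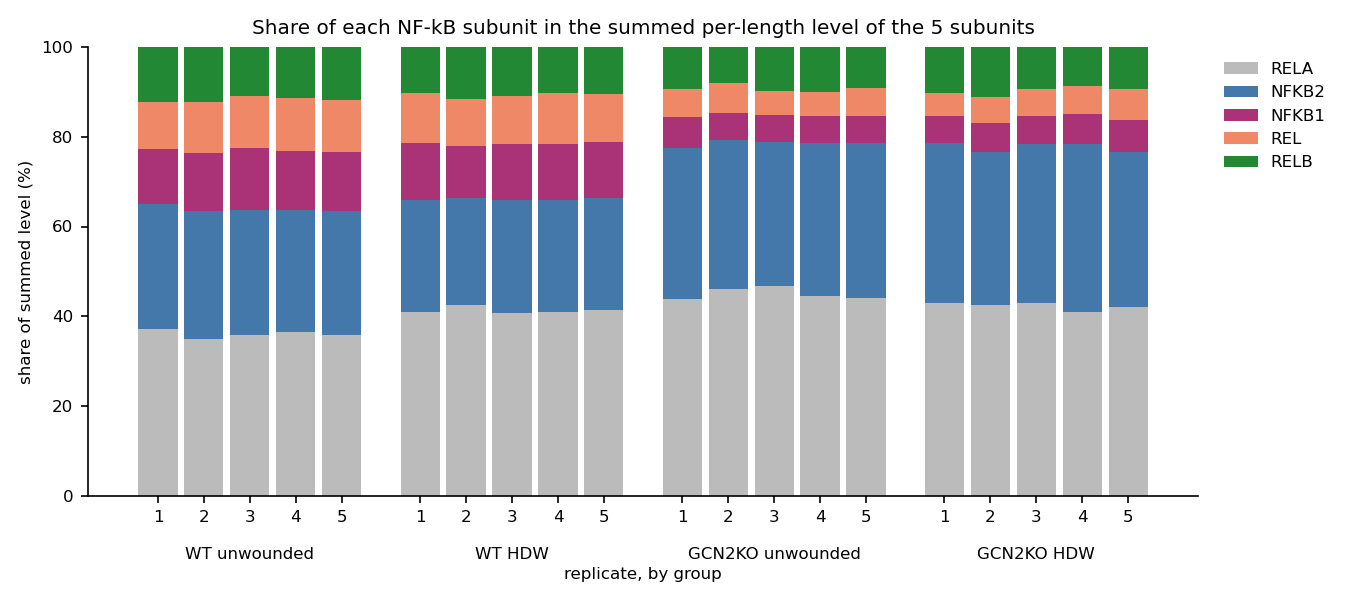
Share of each subunit (colours, % on the y axis) in the summed level per kilobase of the 5 subunit mRNAs, with 1 bar for each of the 20 libraries by replicate number and group. The NFKB1 and REL segments are thinner in all 10 GCN2KO bars, 5.07% to 7.23%, than in all 10 WT bars, 10.3% to 13.9%.

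Among the inhibitors, NFKBIA encodes IkappaB-alpha, the inhibitor that is degraded and resynthesized upon canonical activation. It was the most abundant of the 10 genes per length in each group. The NFKBIA gene lies on chromosome 14, 35401079 to 35404749 on the - strand. NFKBIA had 5459, 5496, 5487, 5652 and 5608 normalized counts in WT unwounded libraries and 3896, 3601, 3806, 3722 and 3848 in WT HDW libraries. In GCN2KO cells NFKBIA had 3134, 2614, 2772, 2493 and 2697 unwounded and 2349, 2413, 2552, 2484 and 2791 after HDW. WT unwounded libraries were highest, WT HDW libraries followed without overlap, and both GCN2KO groups were lower still and overlapped each other. The genotype difference was -1.01 (edgeR adjusted p = 2.04e-09, SE 0.067) in unwounded cells and -0.58 (edgeR adjusted p = 8.21e-08, SE 0.047) after HDW. HDW lowered NFKBIA in WT cells, with a change of -0.56 (edgeR adjusted p = 1.46e-09, SE 0.030). In GCN2KO cells the change was -0.11 (edgeR adjusted p = 0.277, SE 0.073). The interaction was 0.43 (edgeR adjusted p = 0.000337, SE 0.079). Without GCN2KO unwounded 1 the change of NFKBIA in GCN2KO cells was -0.06. Per RELA count there were 1.97 ± 0.094 counts of NFKBIA in unwounded and 1.35 ± 0.057 in wounded WT cells, against 0.977 ± 0.116 and 0.905 ± 0.087 in GCN2KO cells (SD, n = 5 each).

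NFKBIZ encodes a nuclear IkappaB protein that in keratinocytes is known as a cofactor for IL-17 and IL-36 responses. The NFKBIZ gene lies on chromosome 3, 101827991 to 101861022 on the + strand. NFKBIZ had 1703, 1720.2, 1723, 1641 and 1732 normalized counts in WT unwounded libraries and 1676, 1253, 1419, 1731 and 1578 in WT HDW libraries. In GCN2KO cells NFKBIZ had 971, 724, 694, 698 and 752 unwounded and 844, 906, 844, 886 and 993 after HDW. The genotypes did not overlap, WT HDW libraries were the most spread, and GCN2KO unwounded 1 stood above the other 4 of its group. GCN2KO against WT gave -1.15 (edgeR adjusted p = 8.30e-09, SE 0.086) in unwounded cells, or -1.25 without GCN2KO unwounded 1, and -0.77 (edgeR adjusted p = 9.96e-07, SE 0.081) after HDW. Upon HDW the change was -0.16 (edgeR adjusted p = 0.0694, SE 0.069) in WT and 0.23 (edgeR adjusted p = 0.0854, SE 0.094) in GCN2KO cells. The interaction was 0.38 (edgeR adjusted p = 0.0262, SE 0.121), and it did not pass without WT HDW 3 (0.35, edgeR adjusted p = 0.0515) or without GCN2KO unwounded 3 and 5 (0.30, edgeR adjusted p = 0.109). The change in WT cells passed without WT HDW 1 (-0.19, edgeR adjusted p = 0.0364), without WT HDW 4 (-0.20, edgeR adjusted p = 0.019), with library size alone (-0.20, edgeR adjusted p = 0.023) and with no filter (-0.14, edgeR adjusted p = 0.0329). The change in GCN2KO cells passed without GCN2KO unwounded 1 (0.33, edgeR adjusted p = 0.0114), also when GCN2KO HDW 5 was left out with it (0.29, edgeR adjusted p = 0.0145).

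TNFAIP3 encodes a ubiquitin-editing enzyme that shuts off signalling from TNF and Toll-like receptors. It had the largest fold change upon wounding in GCN2KO cells among the 10 genes. The TNFAIP3 gene lies on chromosome 6, 137867214 to 137883314 on the + strand. TNFAIP3 had 1914, 2066, 1769, 2066 and 1988 normalized counts in WT unwounded libraries and 1894, 1964, 2048, 1895 and 2029 in WT HDW libraries. In GCN2KO cells TNFAIP3 had 925, 780.2, 683, 729.6 and 663 unwounded and 1537, 1441, 1287, 1391 and 1187 after HDW. The WT groups overlapped fully, GCN2KO unwounded libraries were lowest, and GCN2KO HDW libraries lay between them and WT without overlap. The genotype difference was -1.37 (edgeR adjusted p = 1.47e-09, SE 0.088) in unwounded cells and -0.52 (edgeR adjusted p = 3.07e-06, SE 0.061) after HDW. HDW raised TNFAIP3 in GCN2KO cells, 0.87 (edgeR adjusted p = 0.000167, SE 0.097). In WT cells the change was 0.00 (edgeR adjusted p = 0.982, SE 0.044), with a 95% interval of -0.08 to 0.09. The interaction was 0.86 (edgeR adjusted p = 4.95e-06, SE 0.109). Without GCN2KO unwounded 1 and GCN2KO HDW 5 the rise in GCN2KO cells was 1.00 and the interaction 0.99, and without GCN2KO unwounded 3 and 5 they were 0.76 and 0.73, all past the adjusted p. TNFAIP3 counts per RELA count were 0.698 ± 0.057 in unwounded and 0.701 ± 0.034 in wounded WT cells, against 0.268 ± 0.031 and 0.491 ± 0.043 in GCN2KO cells (SD, n = 5 each).

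Of the targets, BIRC3 encodes an inhibitor-of-apoptosis ubiquitin ligase that acts at TNF receptors and is induced by NF-kB. The BIRC3 gene lies on chromosome 11, 102317484 to 102339403 on the + strand. BIRC3 had 5099, 5764, 5314, 5721 and 5886 normalized counts in WT unwounded libraries and 4132, 3546, 3772, 4125 and 4137 in WT HDW libraries. In GCN2KO cells BIRC3 had 4824, 3398, 3621, 3148 and 4227 unwounded and 2789.8, 3036, 3026, 3218 and 4535 after HDW. WT unwounded libraries lay above all others, and the remaining groups overlapped. GCN2KO unwounded 1 and GCN2KO HDW 5, which stood apart over all genes, were the highest of their groups. The genotype difference was -0.53 (edgeR adjusted p = 0.000193, SE 0.099) in unwounded cells, or -0.63 without GCN2KO unwounded 1. After HDW it was -0.25 (edgeR adjusted p = 0.0514, SE 0.107), and -0.39 (edgeR adjusted p = 1.12e-05) without GCN2KO HDW 5. This difference also passed without WT HDW 2 (-0.29, edgeR adjusted p = 0.0345), with no filter (-0.27, edgeR adjusted p = 0.00657) and with all 20 libraries in one fit (-0.25, edgeR adjusted p = 0.0498), so the call was borderline. HDW gave -0.50 (edgeR adjusted p = 7.69e-07, SE 0.050) in WT and -0.20 (edgeR adjusted p = 0.298, SE 0.136) in GCN2KO cells, the last being -0.34 and past the threshold (edgeR adjusted p = 0.0382) without GCN2KO HDW 5. Without GCN2KO unwounded 1 it was -0.11. The interaction was 0.28 (edgeR adjusted p = 0.194, SE 0.155), or 0.15 without GCN2KO HDW 5.

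ICAM1 encodes an adhesion molecule that keratinocytes display to leukocytes upon cytokine exposure. The ICAM1 gene lies on chromosome 19, 10271093 to 10286615 on the + strand, and 25.4% of its exonic bases are shared with antisense genes that had at most 13 counts in a library. ICAM1 had 910.2, 1233, 926, 1219 and 1117 normalized counts in WT unwounded libraries and 764, 914, 802, 763 and 855 in WT HDW libraries. In GCN2KO cells ICAM1 had 892, 794, 721, 759.8 and 617 unwounded and 955, 888, 934, 866 and 845 after HDW. WT unwounded libraries fell into a lower pair and a higher trio, and lay above all GCN2KO unwounded libraries. All other pairs of groups overlapped. GCN2KO against WT gave -0.52 (edgeR adjusted p = 0.000438, SE 0.106) in unwounded and 0.13 (edgeR adjusted p = 0.0569, SE 0.059) in wounded cells. HDW gave -0.41 (edgeR adjusted p = 0.000697, SE 0.082) in WT and 0.26 (edgeR adjusted p = 0.0469, SE 0.088) in GCN2KO cells. The interaction was 0.65 (edgeR adjusted p = 0.000597, SE 0.128). The genotype difference after HDW passed without WT HDW 2 (0.17, edgeR adjusted p = 0.0117), without GCN2KO HDW 5 (0.16, edgeR adjusted p = 0.0258), with library size alone (0.16, edgeR adjusted p = 0.0228) and at a mean of at least 50 counts (0.14, edgeR adjusted p = 0.0426). The change in GCN2KO cells did not pass without GCN2KO unwounded 3 (0.23, edgeR adjusted p = 0.105) or without GCN2KO unwounded 5 (0.19, edgeR adjusted p = 0.103). With both left out it was 0.15 (edgeR adjusted p = 0.198).

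Levels were set side by side as CPM per kilobase of exon. In WT unwounded cells NFKBIA stood at 56.8 ± 0.862 (SD, n = 5), followed by BIRC3 at 25.8 ± 1.55, RELA at 17.9 ± 0.762 and NFKB2 at 13.8 ± 0.408, each above the next in all libraries. ICAM1 at 10.9 ± 1.57, TNFAIP3 at 10.6 ± 0.672 and NFKBIZ at 10.04 ± 0.217 overlapped. NFKB1 at 6.48 ± 0.208, RELB at 5.84 ± 0.413 and REL at 5.64 ± 0.179 came last and also overlapped. In GCN2KO unwounded cells NFKBIA led with 28.1 ± 2.49, RELA at 18.0 ± 1.28 and BIRC3 at 17.9 ± 3.15 overlapped, and NFKB1 at 2.47 ± 0.302 and REL at 2.40 ± 0.292 were lowest. With MANE Select lengths NFKB1 stood at 25.0 ± 0.803 in WT unwounded cells, close to NFKB2 at 25.5 ± 0.755, so its place in the order depends on the length.

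Across the 20 libraries, which fall into 4 groups, the genes whose log2 CPM followed that of each member most closely are given by Pearson's r, as a description. For NFKB1 they were MEX3A (0.994) and GTF2I (0.992), for REL RNF152 (0.993) and COL4A5 (0.992), and for NFKBIA DCAF6 (0.993) and KRT15 (0.992). TNFAIP3 was most like MOB3B (0.968) and SIPA1L3 (0.964), BIRC3 most like CD14 (0.960) and SEPTIN10 (0.945), and RELA reached no more than 0.722 with ZC3H3. Around the group means, that is, among libraries of the same group, NFKBIA and BIRC3 moved together most (r = 0.877, 20 libraries), and NFKB1 with REL at 0.735. The 2 GCN2KO libraries that stood apart on the first component were high in both NFKBIA and BIRC3.

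The rest of the pathway differed by list. In unwounded GCN2KO cells other inhibitors and signalling to IKK had medians near 0, and receptors, ligands and other targets lower ones. Of all tested genes 33.1% fell and 33.4% rose in these cells, and 35.8% and 35.9% after HDW. HDW lowered 25.2% and raised 26.1% in WT cells, and 10.8% and 11.9% in GCN2KO cells. The interaction was positive for 11.2% and negative for 12.5%. As DE genes, 8.22% were lower in unwounded GCN2KO cells and 14.9% differed by genotype after HDW. HDW made 4.17% DE genes in WT and 0.671% in GCN2KO cells, and 3.31% were DE genes for the interaction. The lists stand beside these shares. Of 18 tested inhibitors and feedback regulators other than the members, 6 fell and 5 rose at adjusted p alone in unwounded GCN2KO cells, and the median difference was 0.09. The only DE gene among them was IRAK3, a brake on IL-1 and Toll-like receptor signalling, at -3.35 (edgeR adjusted p = 1.55e-07, SE 0.323) in unwounded cells and -3.22 (edgeR adjusted p = 8.84e-06, SE 0.418) after HDW. IRAK3 had 28.9 ± 7.37 and 17.0 ± 6.95 normalized counts in WT unwounded and HDW cells and 2.85 ± 1.52 and 1.86 ± 0.883 in GCN2KO cells (SD, n = 5 each). It passed the filter on low counts only in comparisons that hold WT libraries. After HDW 7 of the 18 fell and 7 rose. In WT cells HDW lowered 8 of 18 and raised 1, and in GCN2KO cells it lowered 1 and raised 1 of 17. The interaction was positive for 3 and negative for 1 of 18.

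Of 39 genes of signalling to IKK, the step upstream of the inhibitors, 16 fell and 11 rose in unwounded GCN2KO cells. The median was 0.02. Over all tested genes 33.1% fell, 33.4% rose and 8.22% were lower as DE genes, against 3 of these 39. The DE genes were IKBKE, an IKK-related kinase (-1.76 (edgeR adjusted p = 2.89e-11, SE 0.077)), RIPK4, a kinase of keratinocyte differentiation (-1.58 (edgeR adjusted p = 2.63e-10, SE 0.086)), and IRAK2, an adaptor kinase of IL-1 receptors (-1.09 (edgeR adjusted p = 6.17e-08, SE 0.097)), all lower. RBCK1, a subunit of the linear ubiquitin ligase, was higher (1.08 (edgeR adjusted p = 8.78e-09, SE 0.081)). After HDW 13 fell and 14 rose, and IKBKE, RIPK4 and IRAK2 were again lower, at -1.19, -1.03 and -1.10. They were the only DE genes, 3 of 39, against 14.9% of all tested genes in either direction. HDW lowered 10 and raised 11 of the 39 in WT cells, and lowered 2 and raised 9 in GCN2KO cells, with no DE genes. The interaction was positive for 10 and negative for 6.

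Of 28 tested receptors and ligands, 14 fell and 8 rose in unwounded GCN2KO cells, against 33.1% and 33.4% of all tested genes. Their median was -0.28. TNFRSF21, a death receptor of the TNF receptor family, was at -1.22 (edgeR adjusted p = 5.79e-09, SE 0.088), TNFSF10, the death ligand TRAIL, at -1.53 (edgeR adjusted p = 3.28e-07, SE 0.157) and IL36G, an epidermal IL-1 family cytokine, at -1.32 (edgeR adjusted p = 7.43e-07, SE 0.146). IL1RN, the IL-1 receptor antagonist, rose, at 1.07 (edgeR adjusted p = 3.81e-09, SE 0.075), as did TNFSF9, the ligand of 4-1BB, at 1.27 (edgeR adjusted p = 4.50e-09, SE 0.090). TNFRSF19, a receptor of the TNF receptor family, was at 3.19 (edgeR adjusted p = 2.91e-08, SE 0.265) from a mean of 7.55 normalized counts in WT unwounded cells. After HDW 15 fell and 7 rose, with IL1B, the main inflammatory IL-1 cytokine, at -1.19 (edgeR adjusted p = 1.28e-09, SE 0.060), IL36G at -1.71 (edgeR adjusted p = 7.43e-09, SE 0.106) and TNFSF10 at -1.27 (edgeR adjusted p = 1.30e-05, SE 0.172). TNFSF9 and TNFRSF19 were the DE genes that rose, at 1.12 (edgeR adjusted p = 7.84e-07, SE 0.114) and 1.55 (edgeR adjusted p = 4.76e-06, SE 0.189). In WT cells HDW lowered 5 and raised 7 of 28. IL1A, an alarmin of keratinocytes, rose, at 1.15 (edgeR adjusted p = 1.60e-09, SE 0.063), with IL36G at 1.09 (edgeR adjusted p = 1.91e-07, SE 0.095) and TNFRSF19 at 1.70 (edgeR adjusted p = 0.000607, SE 0.338), while TNFSF10 fell at -1.16 (edgeR adjusted p = 4.73e-11, SE 0.044) and TLR3, a sensor of double-stranded RNA, at -1.02 (edgeR adjusted p = 4.92e-07, SE 0.097). In GCN2KO cells HDW lowered 5 and raised 5. The interaction was positive for 4 and negative for 6 of 29. TNF itself was at 1.11 (edgeR adjusted p = 0.0468, SE 0.403) and TNFRSF19 at -1.64 (edgeR adjusted p = 0.00174, SE 0.3596). TNF had low means, 30.3 and 22.3 normalized counts in WT unwounded and HDW cells and 10.3 and 16.7 in GCN2KO cells. Its change upon HDW did not pass in WT (-0.47, edgeR adjusted p = 0.13) or GCN2KO cells (0.66, edgeR adjusted p = 0.11). In unwounded cells TNF was also a DE gene, lower in GCN2KO cells (-1.52, edgeR adjusted p = 0.000707).

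Of the tested target genes other than the members, 28 of 55 fell and 13 rose in unwounded GCN2KO cells, 16 and 4 of them DE genes. Over all tested genes 33.1% fell, 33.4% rose and 8.22% were lower as DE genes. The median of the targets was -0.18. The leading falls were in C3, the central complement protein, at -1.89 (edgeR adjusted p = 2.26e-10, SE 0.102), CSF1, a macrophage growth factor, at -1.76 (edgeR adjusted p = 2.50e-10, SE 0.095), and CCL20, an epithelial chemokine, at -2.39 (edgeR adjusted p = 6.12e-10, SE 0.142). PI3, the epidermal protease inhibitor elafin, rose instead, at 1.96 (edgeR adjusted p = 1.48e-11, SE 0.080), with CCL5, a T cell chemokine, at 1.11 (edgeR adjusted p = 9.71e-06, SE 0.155). After HDW 24 of 54 fell and 17 rose, with the gelatinase gene MMP9 at -4.55 (edgeR adjusted p = 2.88e-10, SE 0.189), C3 at -1.68 (edgeR adjusted p = 3.07e-10, SE 0.071) and PLAU, the urokinase gene, at -1.47 (edgeR adjusted p = 1.94e-09, SE 0.078). DE genes that rose included BCL2L1, the survival factor BCL-XL, at 1.04 (edgeR adjusted p = 6.85e-10, SE 0.048) and CXCL6, a neutrophil chemokine, at 1.65 (edgeR adjusted p = 7.40e-07, SE 0.166). CXCL6 had low means, 17.1 normalized counts in WT HDW and 52.7 in GCN2KO HDW cells. MMP9 had low means in GCN2KO cells, 18.9 normalized counts unwounded and 30.8 after HDW, against 117 and 735 in WT cells.

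HDW raised 17 and lowered 17 of 56 targets in WT cells. F3, the tissue factor gene, at 1.39 (edgeR adjusted p = 2.29e-10, SE 0.062), CCND1, the cyclin D1 gene, at 1.02 (edgeR adjusted p = 5.46e-10, SE 0.050) and PTGS2, the inducible cyclooxygenase, at 1.24 (edgeR adjusted p = 7.20e-10, SE 0.062) led the rises. TNFAIP2 fell at -1.22 (edgeR adjusted p = 1.52e-09, SE 0.067) and IRF1, an interferon response factor, at -1.01 (edgeR adjusted p = 2.61e-07, SE 0.091). In GCN2KO cells HDW raised 15 and lowered 5 of 54, CCND1 at 1.26 (edgeR adjusted p = 2.12e-05, SE 0.109) and PTGS2 at 1.12 (edgeR adjusted p = 0.000112, SE 0.119) being the DE genes. The interaction was positive for 9 and negative for 7 of 58. CXCL1, a neutrophil chemokine, was at 1.40 (edgeR adjusted p = 6.81e-07, SE 0.156), TNFAIP2 at 1.20 (edgeR adjusted p = 2.63e-06, SE 0.147) and CSF1 at 1.05 (edgeR adjusted p = 4.95e-06, SE 0.134), and on the negative side PI3 at -1.01 (edgeR adjusted p = 2.73e-06, SE 0.123) and MMP9 at -1.94 (edgeR adjusted p = 0.000174, SE 0.336).

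**Figure D5:**
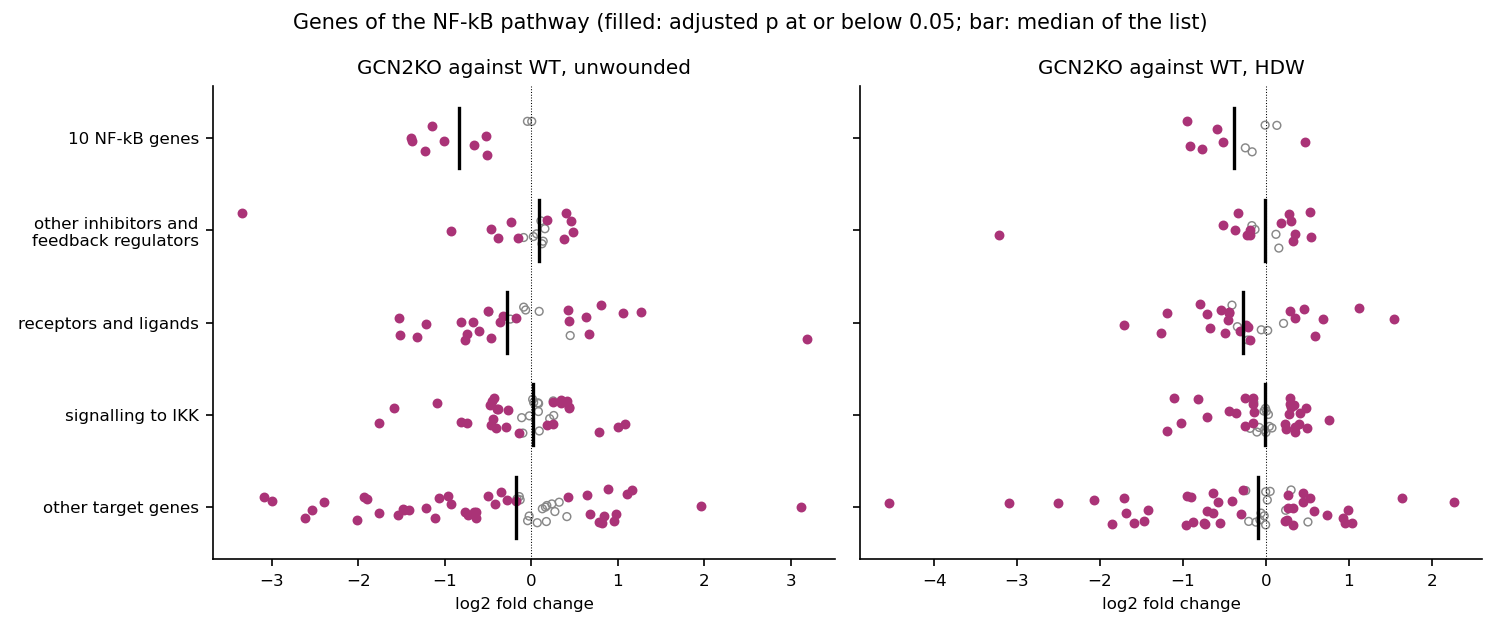
Genotype difference, log2 of GCN2KO over WT (x axis), of each tested gene in the 10 NF-kB genes and the 4 lists, in unwounded cells (left) and after HDW (right), with filled points where the edgeR adjusted p is at most 0.05 and black bars for medians. In unwounded cells the median of the 10 genes is -0.84, against 0.09, -0.28, 0.02 and -0.18 for the lists from top to bottom.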

How the data were processed

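Total RNA of 20 NTERT libraries was sequenced as read pairs. According to the study's methods and the submitters' processing notes, the authors trimmed reads with Trimmomatic, used STAR for alignment to GRCh38 and featureCounts for unique read pairs on each gene. The deposited values are whole-number counts without normalization, and strandedness and the annotation release are not given in the sources used here. Of 57500 identifiers, 56410 were matched to symbols of GENCODE release 44, including all 10 genes, and 1090 were not. The files use the same build.

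The 4 groups come from the sample titles. Each pairwise comparison took the 10 libraries of its groups, and the interaction took all 20. Fits used edgeR 4.0.16 in R 4.3.3 with TMM, filterByExpr (minimum count 10, minimum total 15), glmQLFit and glmQLFTest over all tested genes, with Benjamini-Hochberg adjustment, and were tested on simulated data. The SE is the log2 fold change divided by the square root of F, and 95% intervals are built on it. "Rose" and "fell" mean an adjusted p of at most 0.05. Levels per kilobase used the union of annotated exons. No interval was set on single counts, since replicates give the spread. The depth of 14083504 to 34611570 counts gave at least 185 counts for each of the 10 genes in each library.

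Alternatives were DESeq2 (version 1.42.0), edgeR with the size factors of DESeq2 or with plain library size, no low-count filter or one at 50 counts on average, a single fit of all 20 libraries, a replicate block, thinning to the smallest library and each library left out in turn. Leaving out the libraries that stood apart, MANE Select lengths and the looser motif were added after seeing the data. Same-numbered libraries deviated together by a mean r of -0.109 to 0.0332 over the comparisons, so the numbers were not taken as pairs. Named genes are the 10 members, EIF2AK4, up to 3 DE genes with the smallest adjusted p in each of 4 pathway lists, in each direction and comparison, and the 2 genes most like a member. The members, lists and markers were chosen with earlier results of these data known. One list gene, SOD2, was not matched to a single identifier. The values of another list gene are not reported here. Replicates of a group differed by a chi-square of 2.41 to 49.4 per degree of freedom, more than sampling noise. Python 3.11 with pandas 2.3.3 and matplotlib 3.10.9 made tables and figures. The immunoblots and imaging were not analysed here.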

Additional observations from a re-analysis of the deposited data

Results flagged for a closer look

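The response to HDW differed between genotypes for 8 of the 10 genes, by the edgeR test of the interaction over 20 libraries. The difference, GCN2KO minus WT on the log2 scale, was 0.4394 for NFKB1, 0.5198 for NFKB2, 0.3192 for REL and 0.4953 for RELB. It was 0.4309 for NFKBIA, 0.3766 for NFKBIZ, 0.8557 for TNFAIP3 and 0.6532 for ICAM1. NFKB1, REL, RELB and NFKBIA fell in WT cells and in GCN2KO cells had changes of 0.17, 0.07, 0.18 and -0.11 that did not pass, whereas for TNFAIP3 the WT change was 0.00 and the GCN2KO change 0.87.

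In 4 of 40 sets of 5 libraries, 1 library lay far from the other 4 by Dixon's test, which chance gives in about 1 set in 20. NFKB1 had 3086.7 normalized counts in WT unwounded 3, where the others had 2869.0 to 2887.5. RELA had 3022.7 in WT unwounded 1, the shallowest library, and 2723.0 to 2801.2 in the others. NFKBIZ had 970.9 in GCN2KO unwounded 1, against 693.8 to 752.3. BIRC3 had 4534.6 in GCN2KO HDW 5, against 2789.8 to 3218.3. The last pair of libraries are those that stood apart on the first principal component, with EIF2AK4 at 806 and 814 normalized counts, far below all WT libraries.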

How the results depend on the processing

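The counts of DE genes and of genes past the adjusted p among the 10 kept their value or stayed within 1.5 times of it under all alternatives, with 1 exception. For HDW in GCN2KO cells the 2 genes past the adjusted p became 1 with DESeq2 size factors in edgeR, without a low-count filter, with the replicate block, with thinned counts and without GCN2KO unwounded 3 and 5, in each case by the loss of ICAM1, and they ranged from 1 to 4 when each library was left out in turn. With the replicate block RELB (adjusted p = 0.0344, edgeR) and BIRC3 (0.0121) passed for the genotype after HDW and NFKBIZ (0.0463) for HDW in WT cells, and it changed no other call but that of ICAM1. Leaving out 1 library moved the DE genes of the unwounded genotype comparison from 5 to between 4 and 5, NFKBIA being under the fold threshold in the lower count.

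Signs changed only for values near 0. NFKB2 in unwounded cells was 0.0410, and REL upon HDW in GCN2KO cells -0.0295, without GCN2KO unwounded 3 and 5. The genotype difference of RELA was -0.0301 unwounded and 0.0229 after HDW with library size alone, and -0.0008 unwounded without a filter. Its change upon HDW was 0.0086 without a filter and 0.0124 thinned in WT cells, and 0.0075 with library size alone and 0.0096 without GCN2KO unwounded 1 and GCN2KO HDW 5 in GCN2KO cells. Its interaction was 0.0527 and 0.0048 in those last 2 settings. TNFAIP3 upon HDW in WT cells was -0.0374 with library size alone and -0.0055 at a mean of at least 50 counts. Leaving out 1 library gave RELA -0.0209 to 0.0494 unwounded, -0.0250 to 0.0113 after HDW, -0.0160 to 0.0209 for HDW in WT, -0.0460 to 0.0155 for HDW in GCN2KO cells and -0.0458 to 0.0159 for the interaction, and TNFAIP3 -0.0373 to 0.0209 for HDW in WT. The cause was not tested.

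Over all tested genes, the filter moved the DE counts: 106 for HDW in GCN2KO cells became 199 without a filter and 40 at a mean of at least 50 counts, 2368 for the genotype after HDW became 3681 and 1328, 640 for HDW in WT cells became 998 and 371, and at that mean 547 for the interaction became 280 and 1261 lower in unwounded GCN2KO cells 834. With the block, 1239 rose and 882 fell for HDW in GCN2KO cells, against 1880 and 1706, with all 20 libraries in one fit 2736 and 2840, and without GCN2KO unwounded 3 and 5 1003 and 683. Counting error was largest for RELB, 7.35% at the lowest raw count in GCN2KO HDW cells against an SD of 11.3%, while the spread between libraries was widest for BIRC3 in GCN2KO cells.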

Other observations

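The ratio of TNFAIP3 to NFKBIA counts, 2 inhibitors that share a role in ending the response, was 0.354 ± 0.020 in unwounded and 0.521 ± 0.024 in wounded WT cells, and 0.276 ± 0.027 in unwounded and 0.548 ± 0.088 in wounded GCN2KO cells (SD, n = 5 each). It was chosen after the values were seen and was not tested. The wounded libraries lay above the unwounded ones in both genotypes, with lower NFKBIA in WT cells and higher TNFAIP3 in GCN2KO cells. The 2 HDW groups overlapped in this ratio, at 0.486 to 0.545 in WT and 0.425 to 0.654 in GCN2KO cells.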
